A study of Mus musculus with 69 samples.

Results

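The 10 mRNAs described here are standard markers of the cells of blood vessels, measured in libraries that were made from neurons. The rows of the count table whose gene identifiers map to Cldn5, Cdh5, Pecam1, Flt1, Pdgfrb, Rgs5, Vtn, Acta2, Tagln and Myl9 were taken. All 10 were present among the 17634 genes of the table. The study used RiboTag mice, in which Cre recombination puts an HA tag on the ribosomal protein RPL22 of 1 cell class, so that ribosomes with their mRNA can be pulled out of homogenate by the tag. All mice were homozygous for the Rpl22-HA allele and 70 to 100 days old, of both sexes. They carried either PV-Cre, active in parvalbumin (PV) interneurons, or Camk2a-Cre, active mainly in excitatory neurons, and they were wild type (WT) or knockout (KO) for Fmr1, the gene lost in fragile X syndrome. After perfusion, the visual area V1 and the somatosensory area S1 of the cortex were dissected from both hemispheres. This gave 10 PV WT V1, 10 PV KO V1, 10 PV WT S1, 10 PV KO S1, 8 Camk2a WT V1, 6 Camk2a KO V1, 8 Camk2a WT S1 and 7 Camk2a KO S1 libraries from 37 animals, of which 32 gave both areas. The strain background was not given in the sources used here. Neither Cre line is meant to tag vascular cells, and immunoprecipitates also hold some RNA of untagged cells.

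Blood vessels of the brain are lined by endothelial cells, which form the blood-brain barrier through tight and adherens junctions. Mural cells wrap them: pericytes along capillaries, and contractile smooth muscle cells around arterioles. Pericytes hold on to endothelial cells through platelet-derived growth factor signalling, and smooth muscle cells use actin, myosin and their partners to set vessel width.

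The libraries held 27.64 to 49.11 M estimated counts. The neuronal markers sat where the labels put them, with mean Slc17a7 (the vesicular glutamate transporter of excitatory neurons) at 2427 to 2546 counts per M (CPM) in the Camk2a groups and 145 to 222 CPM in the PV groups. Fmr1 was at most 14.7 CPM in a KO library and at least 35.9 CPM in a WT library. Some libraries stood apart. In 7 libraries of 4 animals (P9, P22, P24 and C24) an area score built from the other class lay nearer the opposite area. For P24 this held for V1 only, and for the others in both areas. Their S1 library scored higher, nearer V1, than their V1 library: -0.21 against -0.97 in P9, -0.34 against -1.54 in P22 and 2.29 against 1.06 in C24. Whether area labels were exchanged was not tested. In 6 Camk2a libraries of 3 animals (KO C3, WT C18 and WT C19) Gad1, which makes GABA, was at 172 to 547 CPM, against 14.3 to 34.6 CPM in the other Camk2a libraries. The Y-linked genes of 3 animals (6 libraries) went against the labelled sex, namely P11 and C23, labelled female, and C16, labelled male. Calls of members that change without the first or second set, or with sex taken from the Y-linked genes, are given below. The labels put the Camk2a WT S1 library of C24 in a batch of its own and all other libraries in another. Nothing in the labels says whether animals were litter mates, and each animal was treated as a replicate.

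Sequence context was available for some members. RefSeq's table for build GRCm38.p6 held the start regions of 6 of the 10 genes, and Cdh5, Pecam1, Pdgfrb and Tagln were not among them. The 250 bases before the annotated start are printed for Vtn and Flt1, which differed strongly between the classes below, and for Rgs5, which did not by the test. Capitals mark matches on either strand to TATAAA, to CGGAA and to the CArG box, the site of serum response factor in smooth muscle genes. CGGAA is a form of the site for ETS factors, which endothelial genes often carry. The shorter core GGAA was not marked, and it occurs in all 3 printed windows. Of CArG boxes only the strict form was searched: CC, then 6 bases of A or T, then GG.
Vtn (chr11:78498870-78499119, plus strand): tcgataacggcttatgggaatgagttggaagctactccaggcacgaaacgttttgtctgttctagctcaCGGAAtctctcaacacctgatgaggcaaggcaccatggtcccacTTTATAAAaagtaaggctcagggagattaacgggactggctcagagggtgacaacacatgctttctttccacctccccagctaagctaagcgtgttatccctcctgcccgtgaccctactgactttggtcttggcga
Flt1 (chr5:147726012-147726261, minus strand): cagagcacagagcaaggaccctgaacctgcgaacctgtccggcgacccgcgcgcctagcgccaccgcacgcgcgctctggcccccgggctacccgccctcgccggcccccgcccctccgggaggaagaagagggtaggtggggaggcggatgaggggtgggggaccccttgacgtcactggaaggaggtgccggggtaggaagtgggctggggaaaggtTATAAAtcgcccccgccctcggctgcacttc
Rgs5 (chr1:169655251-169655500, plus strand): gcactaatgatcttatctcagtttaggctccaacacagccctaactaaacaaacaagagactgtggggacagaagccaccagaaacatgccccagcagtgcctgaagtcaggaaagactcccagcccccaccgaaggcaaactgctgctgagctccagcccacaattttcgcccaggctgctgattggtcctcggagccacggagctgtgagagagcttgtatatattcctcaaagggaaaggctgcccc
The Vtn window held CGGAA once, and a TTTATAAA stretch in which TATAAA reads on both strands with overlap. The Flt1 window held TATAAA once, at -31 to -26 from the start, and the Rgs5 window held none of the 3 motifs. Among the 6 windows a strict CArG box was matched in that of Myl9 alone, as CCTAATAAGG at -161 to -152. The Acta2 window held ccctatatgg and ccttgtttgg, each a single base off the strict form and so not counted. Of 32851 windows of the same length, 1.47% held a CArG box, 25.2% CGGAA and 12.4% TATAAA. These are letter matches and say nothing about binding here.

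All 10 mRNAs were low in these libraries. The median estimated count over the 69 libraries was 10.0 for Acta2, 11 for Myl9, 15 for Tagln and 27 for Cdh5, and it reached 153 for Flt1 and 181 for Rgs5. Myl9 was at 0 in 2 libraries, both Camk2a, and the other 9 were above 0 in every library. Acta2 stayed under 10 counts in 34 libraries and Myl9 in 30. The percentage of all genes in the table with a lower mean CPM ran from 9.4% for Acta2 to 39.4% for Rgs5. Levels are given below as CPM with library totals scaled by TMM factors. In bulk libraries such as these, fewer vascular cells in the dissected tissue and less of an mRNA per cell cannot be told apart.

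Per kilobase of exon, the members fell into a different order in the 2 classes. In PV libraries the mean level was highest for Vtn, at 2.02 CPM per kb, followed by Rgs5 at 1.14 and Cldn5 at 0.998. Myl9 (0.471), Flt1 (0.46) and Pdgfrb (0.456) were next and lay closer to each other than the spread of any of them over libraries. Cdh5 (0.314), Pecam1 (0.26), Acta2 (0.175) and Tagln (0.143 CPM per kb) closed the PV order. In Camk2a libraries Rgs5 led at 0.995 CPM per kb, Cldn5 (0.392) and Vtn (0.372) followed, and 6 others lay between 0.0499 (Cdh5) and 0.157 CPM per kb (Pdgfrb). The place of Tagln there depended on genotype. In Camk2a WT libraries its mean level was second, at 0.75 CPM per kb in V1 and 0.598 in S1. In Camk2a KO libraries it was 0.16 and 0.237 CPM per kb, below Rgs5, Vtn (0.43 and 0.413) and Cldn5 (0.31 and 0.391).

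**Figure D1:**
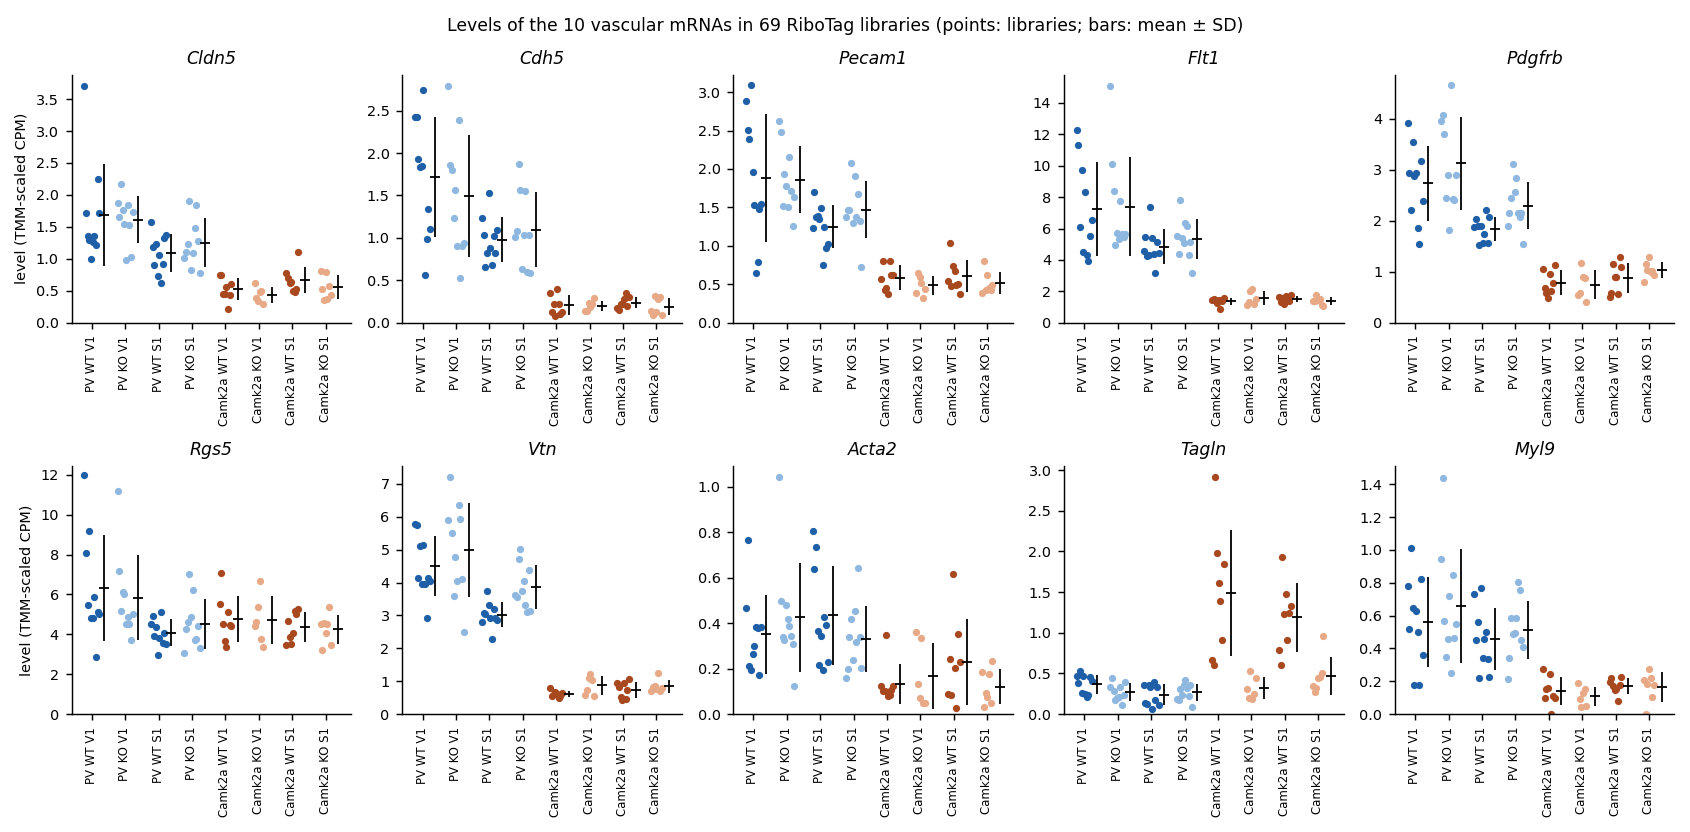
Level of each of the 10 vascular mRNAs (y axis, TMM-scaled CPM, linear from 0, own scale per gene) in the 8 groups (x axis); points are single libraries and bars the mean ± SD. Most members sit higher in PV (blue) than Camk2a (orange) libraries, Rgs5 overlaps between the classes, and Tagln is highest in Camk2a WT libraries, up to 2.91 CPM.

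The first question is whether immunoprecipitates of the 2 neuron classes carry the same amount of vascular mRNA. Of the 10 members, 8 were higher in PV than in Camk2a libraries wherever they could be tested, Rgs5 did not pass the test, and Tagln was lower in PV libraries in 3 of 4 comparisons. The KO S1 call of Tagln was lost when it was counted together with its antisense neighbour Gm48529 (log2 difference -0.08, adjusted p = 0.671, edgeR), and the WT V1 difference was then -0.87. PV and Camk2a libraries were compared within each genotype and area by edgeR's quasi-likelihood test, with a term for sex and p-values adjusted over all genes by Benjamini and Hochberg's method. Members called at an adjusted p under 0.05 numbered 8 of 9 tested in WT V1, 9 of 10 in WT S1, 8 of 10 in KO V1 and 8 of 9 in KO S1. The classes are so different that 77.3%, 77.2%, 74.3% and 77.7% of all genes tested were called in these comparisons, so the number of members called is near the background. Called higher in PV libraries were 7, 8, 8 and 7 members, beside 39.8%, 39.1%, 38.3% and 39.8% of all genes. Called lower was Tagln in WT V1, WT S1 and KO S1, beside 37.5%, 38.1% and 37.9%. The median log2 difference of the members, PV minus Camk2a, was 1.91, 1.06, 1.96 and 1.53, against 0.03, 0.02, 0.04 and 0.03 for all genes tested.

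Among the endothelial members, Cdh5, the cadherin of endothelial adherens junctions, differed most. In V1 of WT mice it ran from 0.561 through a median of 1.84 to 2.74 CPM in PV libraries and from 0.0804 through 0.174 to 0.402 CPM in Camk2a libraries. The groups did not overlap, and the log2 difference was 3.20 (SE 0.329, adjusted p = 2.74e-08, n = 10 and 8, edgeR). In the other 3 comparisons it was 2.11 to 2.81, again with no overlap. Flt1, a receptor for vascular endothelial growth factor, had 3.96 to 12.2 CPM (median 6.31) in PV WT V1 and 0.891 to 1.55 CPM (median 1.44) in Camk2a WT V1. Its log2 difference was 2.46 there (SE 0.234, adjusted p = 9.74e-09, edgeR) and 1.71, 2.18 and 1.96 in WT S1, KO V1 and KO S1. No PV library overlapped a Camk2a library for Flt1 in any of the 4 comparisons.

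Pecam1, an adhesion molecule of endothelial cell contacts, and Cldn5, the main claudin of the blood-brain barrier, differed less. Pecam1 was higher in PV libraries by a log2 difference of 1.77 in WT V1, 1.04 in WT S1, 1.90 in KO V1 and 1.53 in KO S1 (adjusted p = 7.19e-06, 9.28e-05, 7.76e-08 and 4.65e-07, edgeR). Cldn5 was higher by 1.68, 0.73, 1.87 and 1.19 in the same order (adjusted p = 1.68e-05, 0.00388, 3.09e-07 and 9.52e-05, edgeR). In WT S1, where Cldn5 differed least, the PV libraries held 0.618 to 1.58 CPM (median 1.12) and the Camk2a libraries 0.485 to 1.10 CPM (median 0.628). The 2 groups overlapped, with 9 of 10 PV libraries above the Camk2a mean.

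The 3 pericyte members split. Vtn, which encodes the matrix protein vitronectin made by brain pericytes, had 2.91 to 5.79 CPM (median 4.14) in PV WT V1 and 0.474 to 0.791 CPM (median 0.609) in Camk2a WT V1. The PV minus Camk2a log2 difference was 2.94 (SE 0.155, adjusted p = 9.89e-13, edgeR), and 2.07, 2.54 and 2.22 in WT S1, KO V1 and KO S1, without overlap in any. Pdgfrb, the receptor through which platelet-derived growth factor recruits pericytes, was higher by 1.91, 1.07, 2.02 and 1.17, also without overlap. Rgs5, a regulator of G protein signalling and a standard pericyte marker, showed another pattern. It ran from 2.88 to 12.0 CPM (median 5.29) in PV WT V1 and from 3.35 to 7.06 CPM (median 4.495) in Camk2a WT V1, and its log2 difference was 0.45 (SE 0.226, adjusted p = 0.0791, edgeR). In WT S1, KO V1 and KO S1 the Rgs5 difference was -0.10, 0.29 and 0.10 (SE 0.123, 0.21 and 0.146; adjusted p = 0.455, 0.225 and 0.547, edgeR). A p above the threshold does not show equal levels. In the same libraries Pdgfrb and Vtn differed by 1.07 or more. Without the animals on the other area side Rgs5 was called in WT V1, with a log2 difference of 0.50 and an adjusted p of 0.0436, and without the GABA-rich animals it was 0.31 (adjusted p = 0.244).

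The smooth muscle members split as well. Acta2, smooth muscle actin, was tested in WT S1 and KO V1, and was higher in PV libraries by log2 1.02 (SE 0.419, adjusted p = 0.0315) and 1.32 (SE 0.462, adjusted p = 0.0141, both edgeR). The WT S1 call of Acta2 was lost without the animals on the other area side (adjusted p = 0.0508), the highest of 8 alternatives, whose lowest was 0.00848. Acta2 did not pass the filter on low counts in WT V1 and KO S1. Myl9, the regulatory light chain of smooth muscle myosin, was higher in PV libraries by 2.07, 1.45, 2.53 and 1.66 in WT V1, WT S1, KO V1 and KO S1 (adjusted p = 1.87e-04, 1.25e-04, 1.88e-05 and 1.40e-04, edgeR). Tagln, which encodes transgelin, an actin-binding protein of smooth muscle, was lower in PV libraries. It had 0.207 to 0.53 CPM (median 0.394) in PV WT V1 and 0.599 to 2.91 CPM (median 1.50) in Camk2a WT V1, with no overlap. The PV minus Camk2a log2 difference of Tagln was -2.0 in WT V1 (SE 0.306, adjusted p = 6.28e-06) and -2.29 in WT S1 (SE 0.315, adjusted p = 1.12e-06, edgeR). In KO animals it was -0.34 in V1 (SE 0.338, adjusted p = 0.365) and -0.75 in S1 (SE 0.283, adjusted p = 0.0202, edgeR), the call that the joint count ends.

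**Figure D2:**
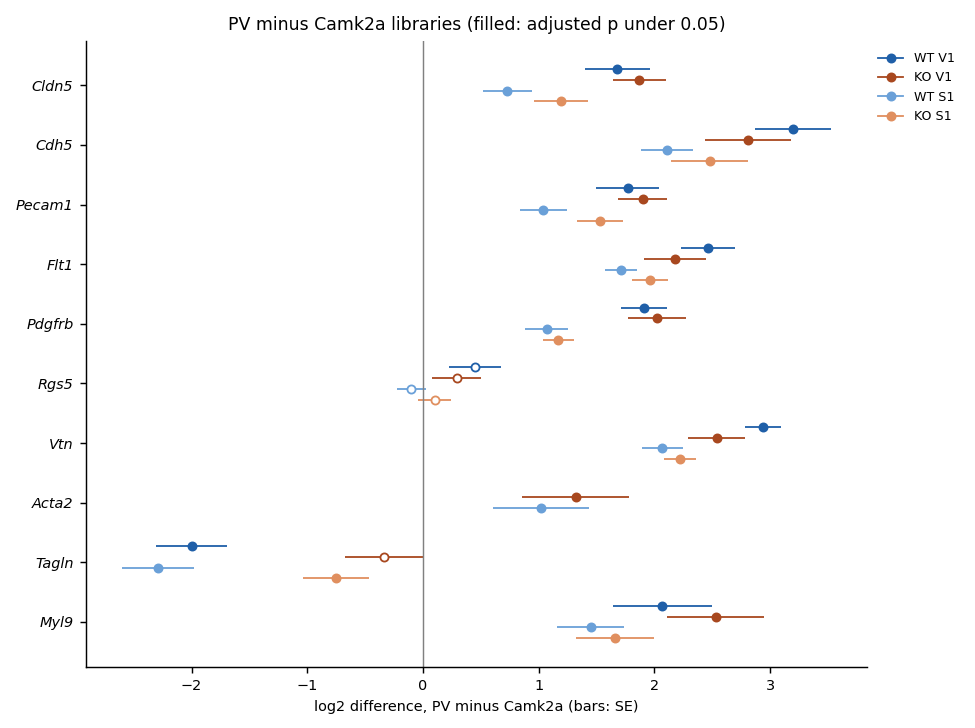
Difference between PV and Camk2a libraries (x axis, log2, PV minus Camk2a; bars are standard errors) for each member (y axis) in 4 genotype and area strata, with filled points for an adjusted p under 0.05 in edgeR. Members other than Rgs5 and Tagln lie between 0.73 and 3.20, Rgs5 lies between -0.10 and 0.45, and Tagln lies below 0. A missing point did not pass the filter on low counts.

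Other genes of the vessel wall, from lists chosen with earlier results of these data known, were also mostly higher in PV libraries. Of 28 other endothelial genes 27 were tested in WT V1, of which 20 were called higher and 6 lower in PV libraries, with a median log2 difference of 2.15. Among the higher was Vwf (log2 difference 2.90), the von Willebrand clotting factor of endothelial cells, and among the lower were Egfl7 (-2.37), a factor secreted by endothelial cells, and Abcg2 (-1.71), a drug efflux pump of the barrier. Of 20 other mural genes 10 were tested in WT V1, and 8 were called higher and 0 lower. Abcc9, a potassium channel subunit of pericytes, was higher by 1.94. Fibroblast genes of vessels and meninges were called higher in 6 of 7 tested, and red blood cell genes in 3 of 3. WT S1 had 15 of 23 other endothelial genes called higher and 5 lower, with a median log2 difference of 1.18. There 8 of 11 other mural genes were called higher and 1 lower, beside 5 of 5 fibroblast genes and 1 of 3 red blood cell genes called higher. Markers of glia were mostly higher too. In WT V1, 7 of 10 astrocyte, 9 of 10 microglia and 9 of 10 oligodendrocyte markers were called higher in PV libraries, with median log2 differences of 1.88, 2.30 and 1.54. As for the tagged cells, 10 of 10 PV interneuron markers were called higher and 10 of 10 excitatory markers lower. The summed level of the 10 microglia markers was 33.1 to 55.9 CPM in PV WT V1 and 18.2 to 22.4 CPM in Camk2a WT V1, and that of the oligodendrocyte markers 399 to 1020 and 275 to 448 CPM. That of the astrocyte markers was lower in PV, at 460 to 773 against 740 to 1040 CPM. No marker of these lists was at 0 throughout a group, and the part of these cells' RNA in the difference was not tested.

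The second question is whether loss of Fmr1 changed vascular mRNA. In PV libraries no member passed the test in either area. In Camk2a libraries 1 member, Tagln, was lower in KO in both areas, and the other 6 members that could be tested did not pass. In PV V1, 0 of 10 members were called, beside 0.191% of all genes, and in PV S1 0 of 10, beside 0.770%. At an unadjusted p under 0.05 the counts were 0 and 2, and DESeq2 called 0 and 1. In Camk2a libraries Acta2, Cdh5 and Myl9 did not pass the filter on low counts, and 1 of 7 members was called in V1, beside 1.40% of all genes, and 1 of 7 in S1, beside 4.09%. Both calls were of lower levels in KO, which 0.784% and 2.09% of all genes showed. These shares rest on few libraries. With 1 library left out in turn, the genes called among all ran from 28 (without WT C16) to 473 (without KO C14) in V1, in place of 222, and from 253 (without WT C16) to 1634 (without WT C24, the batch of its own) in S1, in place of 641. The median KO minus WT log2 difference of the tested members was 0.02 in PV V1, 0.18 in PV S1, -0.04 in Camk2a V1 and -0.12 in Camk2a S1, against 0.00, 0.01, 0.00 and 0.00 over all genes.

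Tagln in Camk2a V1 libraries had 0.599, 0.668, 0.911, 1.39, 1.61, 1.85, 1.98 and 2.91 CPM in the 8 WT libraries, from the lowest to the highest. The 6 KO libraries had 0.18, 0.202, 0.249, 0.312, 0.441 and 0.527 CPM. Every KO library lay below every WT library, and the log2 difference was -2.21 (SE 0.389, adjusted p = 0.0191, edgeR). In Camk2a S1 the 8 WT libraries ran from 0.598 to 1.93 CPM with a median of 1.23. The 7 KO libraries ran from 0.266 to 0.959 CPM with a median of 0.446. Here the groups overlapped, because KO animal C14 at 0.959 lay above WT animals C2 at 0.786, C15 at 0.598 and C20 at 0.916. All 7 KO libraries were below the WT mean, and the log2 difference was -1.32 (SE 0.29, adjusted p = 0.0203, edgeR).

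With the V1 and S1 counts of an animal added up, so that each animal counted once, Tagln was lower in Camk2a KO (log2 difference -1.89, SE 0.306, adjusted p = 0.006, 7 WT and 6 KO animals, edgeR), beside 4.06% of all genes called and 2.06% called lower. The same sums gave a Tagln difference of -0.16 (SE 0.204, adjusted p = 0.847) in PV animals, where 1.36% of all genes and 0 of 10 members were called by edgeR. In PV sums 2 members had an unadjusted p under 0.05 and DESeq2 called 0. The difference between those 2 genotype effects, PV minus Camk2a, was itself called for Tagln at 1.74 (SE 0.344, adjusted p = 0.0106, edgeR), the only member called among 10, beside 0.832% of all genes and 0.507% in that direction. The genotype effect did not differ by the test between V1 and S1 for any member tested, 10 in PV and 8 in Camk2a (adjusted p = 1 for each in edgeR). No gene was called in that test by edgeR, with 312 genes in PV and 608 in Camk2a at an unadjusted p under 0.05, and DESeq2 called 0 and 1.

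The Tagln call in single areas depended on few libraries. In Camk2a V1 it was lost without KO C4 or without KO C7, and in S1 without KO C5 or without WT C16. Over all libraries left out in turn the adjusted p ranged from 0.0113 to 0.0636 in V1 and from 0.0055 to 0.0624 in S1, with log2 differences of -2.43 to -1.83 and -1.60 to -1.02. Without C24 the S1 difference was -1.30 (adjusted p = 0.0147, edgeR). The sum over areas kept its call without any 1 animal (adjusted p 0.00378 to 0.0203). Without the GABA-rich animals C3, C18 and C19 the log2 difference was -2.05 in V1, -1.21 in S1 and -1.81 in the sums, with adjusted p of 0.116, 0.0856 and 0.0616, so all 3 calls were lost. The difference between the classes stayed called at 1.64 (adjusted p = 0.0458, edgeR). Genes called among all fell from 222 to 15 in V1, from 641 to 299 in S1 and from 679 to 131 in the sums in those fits, which have fewer animals. Markers of PV interneurons lay lower in Camk2a KO than WT beside Tagln, with a median log2 difference of -1.11 in V1 and -0.62 in S1, though 0 of 10 passed in either. Of the 10 oligodendrocyte markers 8 were lower in V1 and 10 in S1 (medians -0.18 and -0.24), with 0 and 1 called. Astrocyte markers had 2 called lower in V1 and 1 in S1, with medians of 0.08 and -0.01, and 3 of 3 red blood cell genes tested were lower in each (medians -0.23 and -0.45), none called. PV libraries, with mean Gad1 of 3212 to 3689 CPM, held mean Tagln of 0.238 to 0.365 CPM. The part of interneurons, glia and red blood cells in the Tagln result was not tested.

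Tagln also shares its locus. On GRCm38 (the mm10 build of the files; annotation GENCODE M21) it lies at chr9:45929619-45936058 on the minus strand. Of its 1988 exon bases, 1241 (62.4%) are also exon of the antisense gene Gm48529 on the plus strand, and 108 (5.43%) are exon of Pcsk7. All 603 coding bases of the main Tagln transcript lie inside Gm48529 exons. The third exon, wholly coding, is printed on the Tagln strand because it shows the sharing most plainly: capitals mark the 170 of its 178 bases that lie in exons of both annotated Gm48529 transcripts.
Tagln exon 3 (chr9:45931300-45931477, minus strand): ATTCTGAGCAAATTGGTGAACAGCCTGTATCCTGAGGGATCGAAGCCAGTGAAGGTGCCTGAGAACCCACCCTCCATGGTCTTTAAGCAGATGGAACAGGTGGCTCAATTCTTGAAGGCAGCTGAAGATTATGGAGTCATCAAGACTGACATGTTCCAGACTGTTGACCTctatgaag
No source used here says whether strand was used in counting. It is thus not known whether reads of the 2 genes over these bases were told apart. Without strand, estimated counts divide such reads between transcripts. Gm48529 itself averaged 0.943 ± 0.211 CPM (SD, n = 8) in Camk2a WT V1 and 0.843 ± 0.183 CPM (SD, n = 6) in KO V1, and 1.02 ± 0.191 (SD, n = 8) and 0.815 ± 0.202 CPM (SD, n = 7) in S1, with overlapping groups. With both genes counted as 1, the KO minus WT log2 difference was -1.07 in V1 (adjusted p = 0.031) and -0.77 in S1 (adjusted p = 0.024, edgeR), both still called, and -1.02 in the sums (adjusted p = 0.00618). Counted so, the PV minus Camk2a difference was -1.17 in WT S1, still called. The comparisons of class and of genotype share the Camk2a libraries, so the Tagln values in them are not independent of each other.

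**Figure D3:**
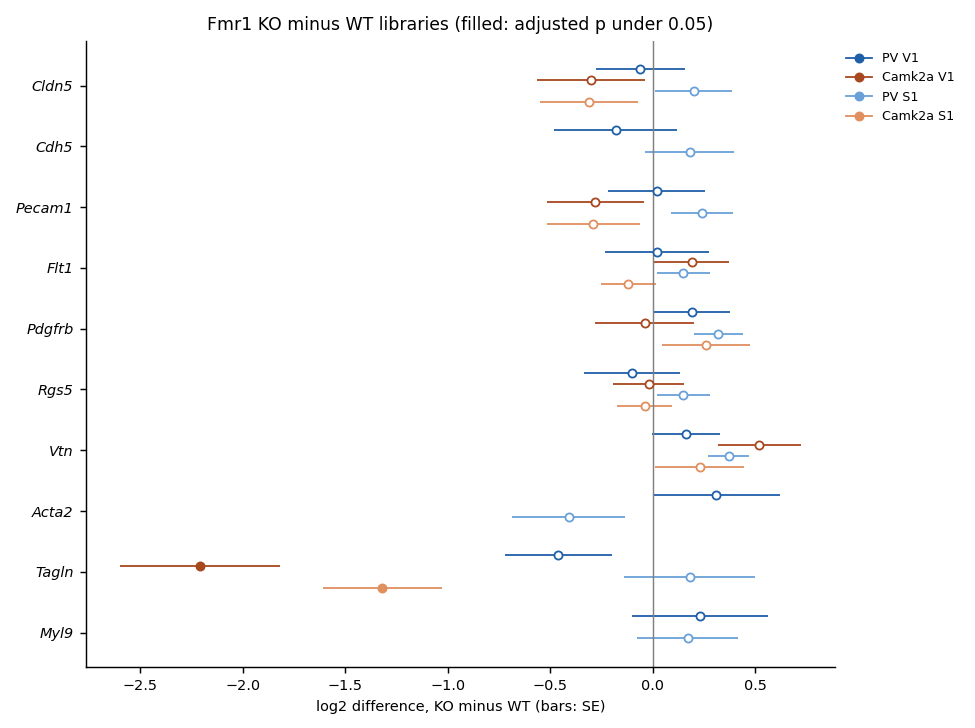
Difference between Fmr1 KO and WT libraries (x axis, log2, KO minus WT; bars are standard errors) for each member (y axis) in each class and area, with filled points for an adjusted p under 0.05 in edgeR. Tagln in Camk2a V1 (-2.21) and Camk2a S1 (-1.32) carries the only filled points.

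**Figure D4:**
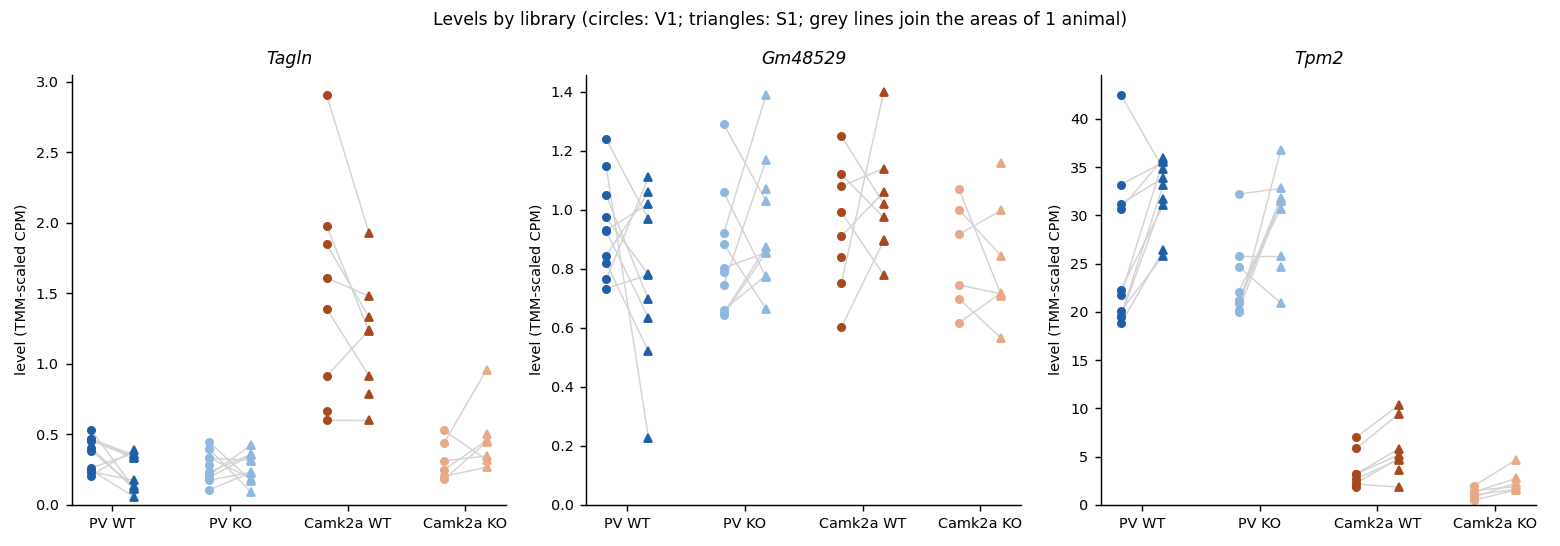
Levels (y axis, TMM-scaled CPM from 0) of Tagln, its antisense neighbour Gm48529 and Tpm2, from the list of other mural genes, by class and genotype (x axis); circles are V1 and triangles S1 libraries, and grey lines join the areas of 1 animal. Tagln is highest in Camk2a WT (0.598 to 2.91), Gm48529 overlaps between all groups, and Tpm2 is lower in Camk2a KO than WT but far higher in both PV groups.

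The other smooth muscle members were not called. In the sums, Acta2 differed by -0.38 (SE 0.449, adjusted p = 0.659) and Myl9 by -0.01 (SE 0.346, adjusted p = 0.994, edgeR) between Camk2a KO and WT. Their mean levels in the Camk2a groups were 0.109 to 0.23 CPM. Among the 20 other mural genes, 10 were tested in Camk2a S1 and 12 in the sums, and 1 was called lower in each, Tpm2. Tpm2 encodes a tropomyosin of contractile cells. It ran from 1.83 to 10.3 CPM in Camk2a WT S1 and from 1.54 to 4.66 CPM in KO S1, with a log2 difference of -1.29 (SE 0.345, adjusted p = 0.0492) there and -1.45 in the sums (SE 0.372, adjusted p = 0.0496, edgeR). The PV group means of Tpm2 were 22.8 to 32.4 CPM, where those of Acta2 and Myl9 were 0.329 to 0.657 CPM. Which cells the Tpm2 mRNA came from was not tested. The highest WT S1 libraries were those of the GABA-rich animals C18 (10.3 CPM) and C19 (9.4 CPM), and the highest KO S1 library was that of GABA-rich C3 (4.66 CPM). Without these 3 animals Tpm2 differed by -1.10 in S1 (adjusted p = 0.0305) and by -1.30 in the sums (adjusted p = 0.037, edgeR), still called. The Tpm2 call held in 2 of 15 fits with 1 S1 library left out (adjusted p = 0.0126 to 0.109) and in 2 of 13 with 1 animal left out of the sums (adjusted p = 0.0188 to 0.118, edgeR), and the log2 difference stayed at -1.12 or below and -1.26 or below. Of the other endothelial genes, 27 were tested in each PV area, 20 in Camk2a V1 and 21 in Camk2a S1, and edgeR called none of those tested for genotype.

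Vtn was the member nearest the threshold in PV libraries. In PV S1 it ran from 2.28 to 3.75 CPM (median 2.98) in WT and from 3.11 to 5.02 CPM (median 3.67) in KO. The groups overlapped, all 10 KO libraries lay above the WT mean, and the log2 difference was 0.37 (SE 0.101, adjusted p = 0.0888, edgeR). It passed in DESeq2 (adjusted p = 0.0292) and without KO library P23 (adjusted p = 0.0481), and without the animals on the other area side it was 0.31 with an adjusted p of 0.261. Other lists had mostly positive KO minus WT differences in PV S1, with none called: 21 of 27 other endothelial genes (median 0.18), 7 of 9 fibroblast genes (median 0.44) and 3 of 3 red blood cell genes (median 1.02). In the PV sums Col1a1, a collagen of fibroblasts, was called higher in KO at 0.61 (adjusted p = 0.0435, edgeR), a call lost without the animals on the other area side (adjusted p = 0.11) and with sex by Y-linked genes (adjusted p = 0.0525), and held in 6 of 19 fits with 1 animal left out. Their part in the Vtn values was not tested. The Vtn difference was 0.16 in PV V1, 0.52 in Camk2a V1 and 0.23 in Camk2a S1 (adjusted p = 0.901, 0.19 and 0.568, edgeR), positive in all 4 comparisons and called in none. Pdgfrb had 0.32 in PV S1 (adjusted p = 0.241). Rgs5 differed by -0.10, 0.15, -0.02 and -0.04 in PV V1, PV S1, Camk2a V1 and Camk2a S1, with standard errors of 0.13 to 0.233. Cldn5 differed by -0.06 (SE 0.216) in PV V1 and 0.20 (SE 0.188) in PV S1, and by -0.30 (SE 0.264) and -0.31 (SE 0.238) in Camk2a V1 and S1, none called.

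The third question is whether V1 and S1 libraries differ. In PV WT libraries 5 of 10 members were called, all higher in V1, beside 20.6% of all genes in either direction and 10.7% higher in V1. They were Vtn, Pdgfrb and Rgs5 among the pericyte members and Cdh5 and Flt1 among the endothelial members. Vtn ran from 2.91 to 5.79 CPM (median 4.14) in V1 and 2.28 to 3.75 CPM (median 2.98) in S1, with a log2 difference, V1 minus S1, of 0.58 (SE 0.116, adjusted p = 0.00594, edgeR). The areas overlapped for this and every other member, with 9 of 10 V1 libraries above the S1 mean for Vtn. Rgs5, which was not called between the classes in the main fits, had 2.88 to 12.0 CPM in V1 and 2.97 to 5.14 CPM in S1. It was higher in V1 by 0.63 (SE 0.19, adjusted p = 0.0259, edgeR). Pdgfrb was higher by 0.57, Cdh5 by 0.78 and Flt1 by 0.58 (adjusted p = 0.0138, 0.0176 and 0.0379, edgeR). Cldn5 at 0.63 and Pecam1 at 0.56 fell short (adjusted p = 0.0515 and 0.0648). Both areas came from the same 10 animals, and with the animal as a block Cldn5 was called (0.57, adjusted p = 0.0178, edgeR) while Pecam1 was not (0.50, adjusted p = 0.0515). DESeq2 called both (adjusted p = 0.034 and 0.0445). Without the animals on the other area side both were called too, Cldn5 at 0.64 (adjusted p = 0.0446) and Pecam1 at 0.66 (adjusted p = 0.0214, edgeR). The smooth muscle members Acta2 (-0.32), Tagln (0.62) and Myl9 (0.30) had adjusted p of 0.145 to 0.479.

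In PV KO libraries the same 5 members differed by 0.37 (Vtn), 0.44 (Pdgfrb), 0.38 (Rgs5), 0.43 (Cdh5) and 0.46 (Flt1), and 0 of 10 members were called, beside 7.56% of all genes. At an unadjusted p under 0.05 there were 5, and DESeq2 called 1, Pdgfrb (adjusted p = 0.0483). Without the animals on the other area side 2 were called in PV KO, Vtn at 0.53 (adjusted p = 0.0232) and Pdgfrb at 0.56 (adjusted p = 0.0243, edgeR), and 7 in PV WT. The area difference itself was not shown to differ between the genotypes, as the test above of genotype against area gave adjusted p = 1 for each member tested. In Camk2a libraries 0 of 7 tested members were called for area in WT, beside 0.359% of all genes, and 0 of 7 in KO, beside 13.1%. At an unadjusted p under 0.05 the Camk2a counts were 0 and 1, and DESeq2 called 0 in both. The median V1 minus S1 log2 difference of the members was 0.58 in PV WT, 0.37 in PV KO, -0.15 in Camk2a WT and -0.07 in Camk2a KO, against 0.01, 0.01, -0.01 and 0.00 for all genes.

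Other lists moved with area in PV WT libraries. Of 27 other endothelial genes tested 15 were called higher in V1 and 1 lower, with a median of 0.62. The higher genes included Slc2a1, the glucose transporter of the barrier, at 0.32 (adjusted p = 0.0128), and Adgrf5, an adhesion receptor of endothelial cells, at 0.68 (adjusted p = 0.0122, edgeR). Itm2a was lower by 0.41 (log2 difference -0.41), a call lost without the sex term (adjusted p = 0.0512). The other mural genes went both ways: of 10 tested 3 were called higher and 2 lower, namely Tpm2 (-0.35) and Mylk (-0.65), the kinase of myosin light chain. The Tpm2 call for area held in 5 of 6 alternative fits. Fibroblast genes had 4 of 9 called higher. In PV KO libraries 2 of 27 other endothelial genes were called higher and 0 lower (median 0.33), and 1 of 10 mural genes higher and 2 lower. None of these PV KO calls held with the animal as a block, a fit that called 0 of all genes there. Among markers of other cells in PV WT, 8 of 10 astrocyte, 4 of 10 microglia, 1 of 10 oligodendrocyte and 7 of 10 excitatory neuron markers were called higher in V1. The summed astrocyte markers were 460 to 773 CPM in PV WT V1 against 453 to 586 CPM in PV WT S1. For PV KO these calls numbered 4, 2, 2 and 0 of 10 in the same order. Of the PV interneuron markers 2 were called higher and 4 lower in PV WT, and 2 higher and 3 lower in PV KO. The part of these markers in the area difference of the vascular members was not tested. PV WT S1 libraries also serve in the genotype comparison for PV S1, so the Vtn value of 0.58 for area and 0.37 for genotype rest partly on the same 10 libraries.

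**Figure D5:**
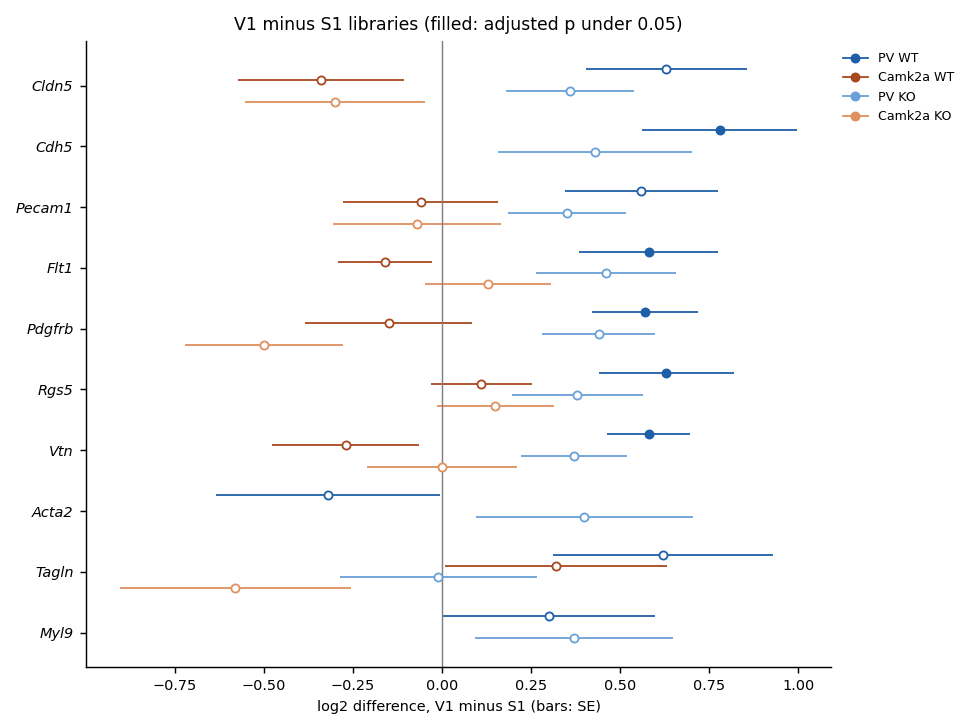
Difference between V1 and S1 libraries (x axis, log2, V1 minus S1; bars are standard errors) for each member (y axis) by class and genotype, with filled points for an adjusted p under 0.05 in edgeR. The 5 filled points, 0.57 to 0.78, all belong to PV WT libraries; Camk2a points of the tested members lie between -0.58 and 0.32.

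Within groups the endothelial and pericyte members had higher correlations than the pairs with Tagln, a difference that was not tested. Over the 69 libraries, with each group centred on its own mean, the Pearson r of log2(CPM + 1) had a median of 0.43 over the 6 endothelial pairs, 0.51 over the 3 pericyte pairs and 0.50 over the 12 pairs of an endothelial with a pericyte member. It had a median of 0.13 over the 3 smooth muscle pairs and 0.06 over the 9 pairs with Tagln, with 0.70 the highest of all 45 pairs. Within single groups, 0 of 24 correlations passed a two-sided permutation test after Benjamini-Hochberg adjustment. The Pearson r of Cldn5 with Flt1 ran from -0.43 in Camk2a KO V1 to 0.84 in Camk2a WT V1, and that of Cldn5 with Acta2 from -0.15 in Camk2a KO S1 to 0.75 in PV KO S1. That of Acta2 with Tagln ran from -0.48 in Camk2a KO V1 to 0.62 in Camk2a KO S1. The highest r of Cldn5 with Flt1 and with Acta2 had permutation p = 0.0155 and 0.0162, and adjusted p = 0.195 for both. The pooled values are descriptions. Acta2, Myl9 and Tagln also had the lowest median counts of the members, 10 to 15, and the part of counting noise in their low r was not tested. The 2 libraries of an animal share that animal, and both genes of a pair share the depth of each library.

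The genes most like Cldn5 in this centred measure, among 13383 genes with a mean of at least 1 CPM, were Efcab12 (r = 0.56), Fgfrl1 and Slco1a4 (0.54), Polg2 (0.53) and Glt8d2 (0.50). Slco1a4 encodes an organic anion transporter of the barrier and belongs to the endothelial list. Those most like Acta2 were Pltp (0.55), Ecm1 (0.45), and Aebp1, Cln3 and Mapk12 (0.43). For Tagln, looked up after its values were seen, they were Mybpc3 (0.64), Abi3bp (0.53), Sfxn1 (0.50), Ankrd12 (0.49) and Tmem88 (0.48). Mybpc3, a myosin-binding protein best known from the heart, averaged 3.73 ± 1.42 CPM (SD, n = 8) in Camk2a WT V1 and 1.84 ± 0.371 CPM (SD, n = 6) in KO V1, and 0.0997 to 0.179 CPM in the PV groups. Abi3bp, a matrix-associated protein, averaged 15.1 ± 7.58 CPM (SD, n = 8) in Camk2a WT V1 and 5.36 ± 1.21 CPM (SD, n = 6) in KO V1. Its PV group means were 0.516 to 1.49 CPM.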

How the data were processed

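The 69 libraries are of immunoprecipitated RNA. The authors deposited estimated counts per gene with no normalization, of which 71.1% were not whole. The submitters' processing notes name STAR, Salmon, limma and the mm10 build. Versions, annotation release and use of strand: not given in the sources used here. Amplified reads carried no molecular identifiers per the labels' protocols. GENCODE M21 named 17614 of 17634 genes.

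Counts were rounded, filtered with filterByExpr (minimum count 10), scaled by TMM and tested with edgeR 4.0.16 (R 4.3.3) by the robust quasi-likelihood fit with sex as a term and adjustment over all genes. DESeq2 1.42.0, RLE factors, no filter, no sex term, the animal as a block and each library left out were alternatives. Leaving out animals, sex by Y-linked genes and joint counting of Tagln with Gm48529 were added after seeing the data. The members and lists were chosen with earlier results of these data known. All 10 members were named, at most 2 called genes per list of other vascular genes and direction, and the 5 genes most like Cldn5 and Acta2; Tagln's were added after its values were seen. The area fits can be paired because library names carry animal codes. Over 12231 genes, deviations of the 2 libraries of 32 animals correlated at -0.20 to 0.82 (median 0.43). Libraries of 1 group differed by far more than counting noise (smallest chi-square per degree of freedom 4.35). Scripts were tested on simulated data.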

Additional observations from a re-analysis of the deposited data

Results flagged for a closer look

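In 8 of 80 combinations of a member and a group, the highest library lay far from the others by Dixon's gap test. For normally distributed values chance flags about 1 in 20 groups. Whether these low CPM are so distributed was not tested, so the rate of flags by chance is not known here. Animal P5 gave 3 of these in PV KO V1. Its Flt1 was 15.1 CPM beside 10.1 CPM in the next library, its Rgs5 11.2 beside 7.18 CPM and its Acta2 1.04 beside 0.495 CPM. In PV WT V1, Cldn5 was 3.71 CPM in P1 beside 2.25 CPM, and Acta2 was 0.763 CPM in P2 beside 0.464 CPM. Acta2 was 0.349 CPM in C18, a GABA-rich Camk2a WT V1 library, beside 0.125 CPM. In Camk2a KO S1, Vtn was 1.24 CPM in C7 beside 0.862 CPM, and Tagln was 0.959 CPM in C14 beside 0.503 CPM. The genotype effect on Tagln differed between the classes by 1.74 on the log2 scale, PV minus Camk2a, in the test of that difference (adjusted p = 0.0106, edgeR).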

How the results depend on the processing

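No direction of a called value reversed in any alternative run. Of the alternative counts of members called, 216 stayed within 1.5 times, 4 rose and 7 fell. Of the alternative values of single members, 408 kept their side of the threshold, 11 gained a call and 9 lost one. For the other vascular genes named from the lists, all called in the main fit, 480 alternative values kept the call and 57 lost it. With DESeq2, 1 member was called for genotype in PV S1 (Vtn) and 1 for area in PV KO. Without the animals on the other area side, 2 were called for area in PV KO. Without the GABA-rich animals, 0 were called for genotype in Camk2a V1, S1 and the sums; those fits have fewer animals. Leaving out 1 library gave 0 to 1 members called in PV S1 (1 without KO P23), Camk2a V1 (0 without KO C4 or KO C7) and Camk2a S1 (0 without KO C5 or WT C16). Counts over all genes then ran from 20 to 56 in PV V1, 80 to 177 in PV S1, 28 to 473 in Camk2a V1, 253 to 1634 in Camk2a S1, 144 to 255 in the PV sums and 235 to 1347 in the Camk2a sums. The cause of these changes was not tested.

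With the animal as a replicate block, 6 members were called for area in PV WT, Cldn5 added (0.57, adjusted p = 0.0178, edgeR), and the block changed no other call of a member. Counts over all genes moved more: the block gave 0 in place of 1218 for area in PV KO, 7 in place of 56 in Camk2a WT and 3277 in place of 2058 in Camk2a KO. DESeq2 called 113, 310, 868 and 1444 genes for genotype in PV V1, PV S1, Camk2a V1 and Camk2a S1, in place of 31, 122, 222 and 641. It called 469 and 1713 in the PV and Camk2a sums, in place of 234 and 679. It called 2062 and 1346 for area in PV KO and Camk2a WT, and 270 in place of 146 for the difference between classes. Without the animals on the other area side, area calls were 5060 in place of 3291 in PV WT, 3479 in PV KO and 3405 in Camk2a WT. Genotype calls then were 81 in PV S1 and in the PV sums, 355 in Camk2a V1, 1634 in Camk2a S1 and 1347 in the Camk2a sums. Without the GABA-rich animals 92 genes were called for the difference between classes, and 0 for area in Camk2a WT. Without the sex term the counts were 990 for genotype in Camk2a S1 and 385 for area in Camk2a WT, and with sex by Y-linked genes 48 in PV V1 and 310 for area in Camk2a WT. Median counts of 10 to 15 for the smooth muscle members limit what could be detected for them.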
